A study of Homo sapiens with 9 samples.

Results

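Chromosomal DNA is copied by a machinery of fixed parts, and 47 of its genes were followed in the triple-negative breast cancer line MDA-MB-231 after knockdown of ASAH1, the lysosomal acid ceramidase. The 47 genes were taken by name from the 26485 gene rows that each deposited table lists, and all 47 were present and tested in every comparison. They comprise the 6 subunits of the replicative helicase (MCM2 to MCM7), 5 genes of origin licensing, 6 of helicase activation, 9 subunits of the replicative polymerases and primase, 6 of the sliding clamp and its loader, 3 of the single-strand binding complex, 3 of Okazaki fragment maturation, 5 of nucleotide supply and 4 of chromatin and methylation copying. Cells stably expressing a nonspecific (NS) shRNA, ASAH1 shRNA #1 or ASAH1 shRNA #2 were sequenced as strand-specific mRNA libraries, with 3 libraries in each group. All cells were grown in DMEM with serum, and nothing but the hairpin differed by label. Whether each line was a pool or 1 clone is not given in the sources used here, and 1 control hairpin stands for all controls.

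Replication origins are licensed in G1 phase when the origin recognition complex, CDC6 and CDT1 load the MCM helicase on DNA, and geminin (GMNN) blocks CDT1 once S phase has begun. In S phase CDC45 and the GINS complex turn the helicase on, the polymerases copy both strands behind it, PCNA clamps them to DNA, and FEN1, DNA2 and LIG1 join the fragments of the lagging strand. Many of these genes are transcribed in late G1 and S phase under E2F transcription factors, which pocket proteins of the RB family hold in check, so their mRNA is high in cycling cells and low in resting ones.

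E2F factors read short strings in promoters, and these were looked up first because they are the sequence feature these genes are known for. RefSeq promoter windows on GRCh38.p14, each reaching from 250 bases before an annotated start to 50 bases after it, were at hand for 40 of the 47 genes. MCM4, MCM5, GINS4, POLD3, RPA2, RPA3 and DNA2 had no window. TTTCCCGC, TTTGGCGC, TTTCGCGC or TTTGCCGC on either strand was present in 21 of the 40 genes (52.5%), compared with 6.48% of the 10552 tested genes that had a window and 3.99% of all 27305 genes in the promoter set. Within the 250 upstream bases alone, 15 of the 40 genes (37.5%) held a match, beside 5.49% of the tested genes. TTTCCCGC was found in 11 genes, TTTGGCGC in 8, TTTCGCGC in 7 and TTTGCCGC in 0. The 100 bases just before the start are shown for 4 genes whose match lies there and whose 100 bases overlap no annotated exon: the licensing factor CDT1 (chr16:88803689-88803788, plus strand), the GINS subunit GINS2 (chr16:85688955-85689054, minus strand), the CDT1 inhibitor GMNN (chr6:24775313-24775412, plus strand, 1 of 2 annotated starts) and the helicase subunit MCM6 (chr2:135876444-135876543, minus strand). They are written 5′ to 3′ on the strand of the gene, with the E2F string in capitals.
CDT1: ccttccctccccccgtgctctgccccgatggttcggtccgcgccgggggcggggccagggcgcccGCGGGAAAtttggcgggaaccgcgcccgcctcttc
GINS2: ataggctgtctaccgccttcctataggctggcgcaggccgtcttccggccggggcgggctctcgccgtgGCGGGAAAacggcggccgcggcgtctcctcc
GMNN: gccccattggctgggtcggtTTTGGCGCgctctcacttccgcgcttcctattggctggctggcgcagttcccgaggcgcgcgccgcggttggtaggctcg
MCM6: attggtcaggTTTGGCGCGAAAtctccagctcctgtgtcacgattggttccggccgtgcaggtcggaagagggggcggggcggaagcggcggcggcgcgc
In CDT1 and GINS2 the capitals are TTTCCCGC read on the opposite strand, beginning 35 and 31 bases before the start. In GMNN they are TTTGGCGC, 80 bases before the start. In MCM6 TTTGGCGC on the strand of the gene and TTTCGCGC on the other strand overlap, so the capitals run together. A match of letters is a description of the window and says nothing on binding in these cells.

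**Figure D1:**
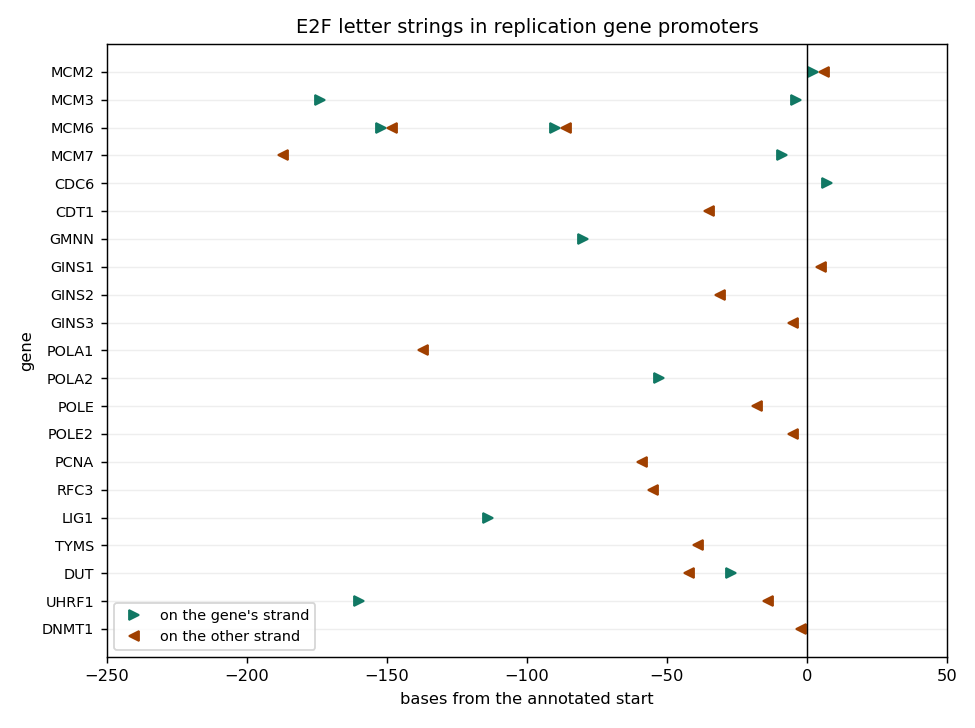
Position of each E2F string in the promoter windows of the 21 genes that hold one, in bases from the annotated start (0), with right-pointing marks for strings on the strand of the gene and left-pointing marks for the other strand. Genes with several annotated starts show the matches of each window, and MCM6 shows 4 matches in overlapping pairs.

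The CCAAT box (CCAAT) was present in 24 of the 40 genes (60%) and in 42.8% of the tested genes. The GC box (GGGCGG) was found in 30 of the 40 (75%) and in 75.6% of the tested genes. The CHR element (TTTGAA or TTCGAA), a string known from promoters of mitotic genes, was in 3 of the 40 (7.5%) and in 15.6% of the tested genes. All were searched on both strands, and the E2F strings were the ones whose share departed furthest from that of the tested genes.

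Between 23806003 and 49659106 reads fell on genes in the 9 libraries, with 30989598 to 34867548 in the NS shRNA group, and a replication gene held between 183 and 24202 reads in a library. Levels are given as CPM, read counts brought to the same total in every library, from the reads behind the deposited values and scaled between libraries by the trimmed mean of M-values, with the SD over 3 libraries. ASAH1 stood at 134, 136 and 135 CPM with NS shRNA, 38.4, 41.2 and 40.9 with ASAH1 shRNA #1 and 21.6, 22.5 and 21.1 with ASAH1 shRNA #2. The targeted message was therefore lowered by both hairpins, with log2 fold changes of -1.76 ± 0.050 and -2.63 ± 0.057 (SE), and was lower with ASAH1 shRNA #2 than with ASAH1 shRNA #1 by a log2 ratio of -0.89 ± 0.051 (edgeR adjusted p = 6.84e-08). Of the markers of the line, VIM was between 1251 and 2082 CPM, CD44, EGFR and KRT18 were expressed in all libraries, and ESR1 and PGR held at most 0.081 CPM. ERBB2, a receptor that triple-negative tumours do not overexpress, was not absent, at 59.0 to 102 CPM.

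Replication genes were mostly lower with ASAH1 shRNA #1 and were split with ASAH1 shRNA #2. With ASAH1 shRNA #1, 36 of the 47 genes fell, 6 rose and 5 did not pass the test, while 33.3% of the 14341 genes tested fell and 32.8% rose (limma, adjusted p below 0.05). Their median log2 fold change was -0.37, beside 0.0013 over all genes tested. With ASAH1 shRNA #2, 15 fell, 14 rose and 18 did not pass, close to the 33.4% and 33.5% of the 14250 genes tested that fell and rose, and the median was -0.031 beside 0.013. In the direct comparison of both hairpins by edgeR, 36 of the 47 genes were higher with ASAH1 shRNA #2, where 31.4% of the 14381 genes tested were higher, and 3 were lower (POLA2, POLD2 and TYMS), where 32.5% of all were lower. The median log2 ratio was 0.30, beside -0.0046 over all genes. Counts by role below rest on few genes each and stand beside these same shares. The NS shRNA libraries serve both comparisons with the control, which are therefore not independent of each other. In bulk RNA, fewer cells in S phase and less message per cell cannot be told apart.

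Summed over the 47 genes, 0.519% to 0.537% of the reads on genes came from this machinery with NS shRNA, without scaling between libraries. The share was 0.418% to 0.438% with ASAH1 shRNA #1 and 0.497% to 0.519% with ASAH1 shRNA #2. The ASAH1 shRNA #1 libraries lay below all 6 others, and the other groups met at their edges. How the ASAH1 shRNA #2 group compares with NS shRNA depends on the scaling. In scaled CPM, sums were higher in each ASAH1 shRNA #2 library than in each control for helicase core, licensing, clamp and loader, single-strand binding and chromatin genes. They were lower in each for polymerase genes. For activation genes (mean higher) and for nucleotide supply and Okazaki maturation genes (means lower) the libraries of the 2 groups overlapped. A sum follows its most abundant genes and is no shift of a whole role. In the helicase core 1 of 6 genes rose and 2 fell with ASAH1 shRNA #2. Within a group, the highest library exceeded the lowest by a median of 1.084-fold to 1.105-fold over the 47 genes. ASAH1 itself was lowest in the ASAH1 shRNA #2 libraries, where this share was the nearer one to the control.

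**Figure D2:**
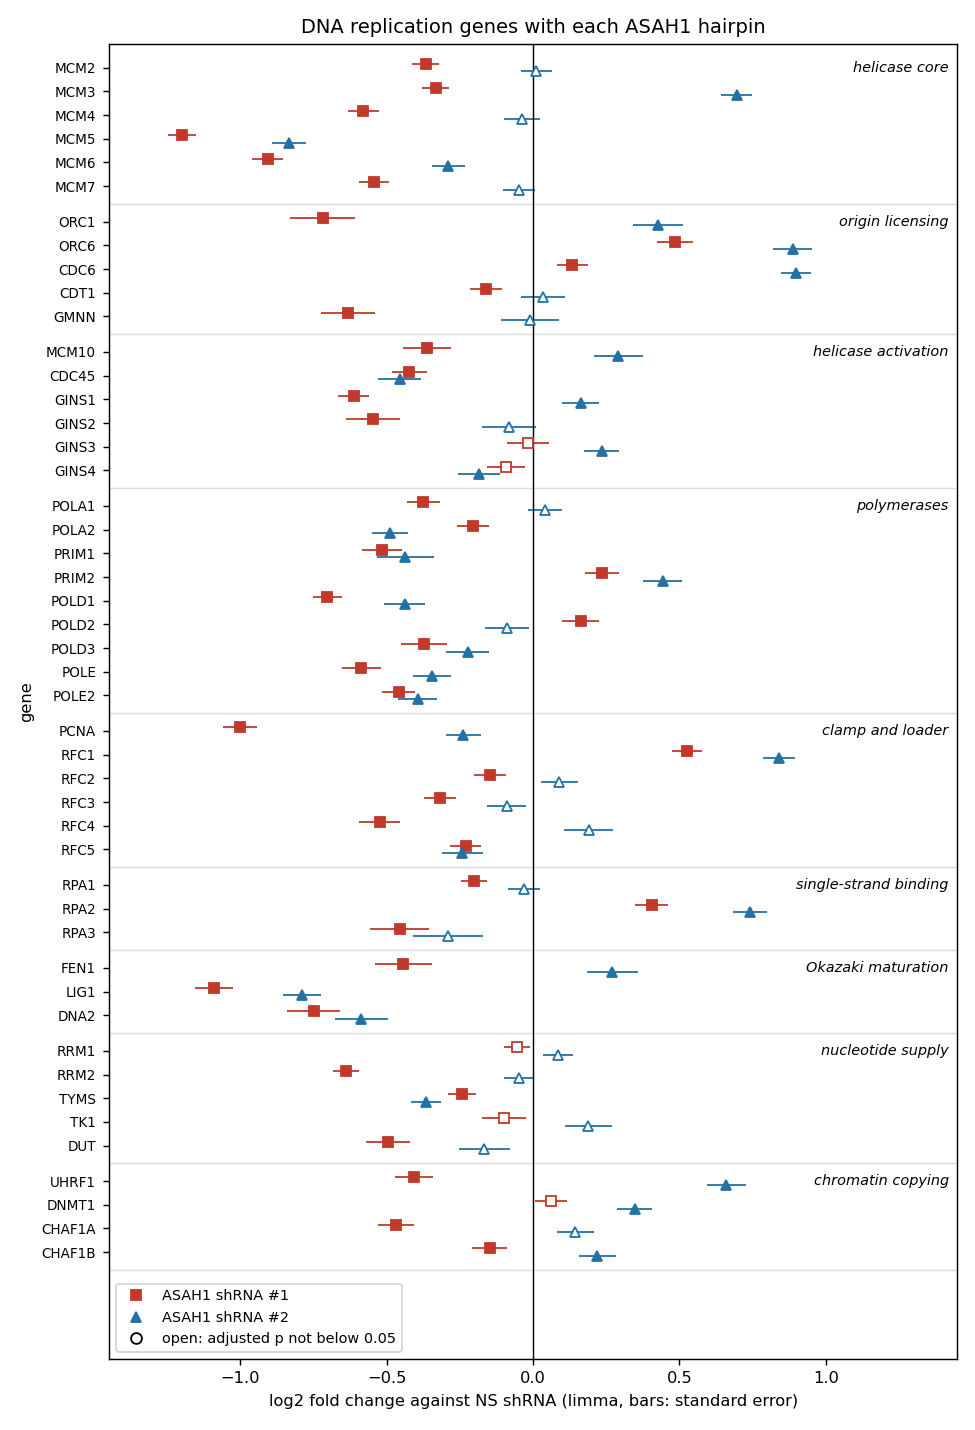
log2 fold change of each of the 47 replication genes against NS shRNA (limma on 3 libraries a group, bars 1 SE), with squares for ASAH1 shRNA #1 and triangles for ASAH1 shRNA #2, filled where the adjusted p was below 0.05. Squares lie left of 0 for 40 of the 47 genes, from -1.20 for MCM5 to 0.53 for RFC1, and triangles spread on both sides, from -0.83 for MCM5 to 0.90 for CDC6.

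All 6 subunits of the helicase core fell with ASAH1 shRNA #1, beside 33.3% of all genes tested. Their summed level went from 1321 ± 30.9 CPM to 904 ± 22.7 CPM, compared with 1416 ± 37.8 CPM with ASAH1 shRNA #2. MCM5 (chr22:35400134-35425431), which forms the gate of the ring with MCM2, stood at 109, 109.9 and 107 CPM with NS shRNA, 47.4, 48.7 and 46.7 with ASAH1 shRNA #1 and 63.6, 57.7 and 61.3 with ASAH1 shRNA #2. The groups did not overlap, and both hairpin groups lay below the control. Its log2 fold change of -1.20 ± 0.046 with ASAH1 shRNA #1 (limma adjusted p = 5.82e-08) was the lowest of the 47, and -0.83 ± 0.058 with ASAH1 shRNA #2 (adjusted p = 7.23e-07) was again the lowest. MCM6 followed at 153, 163 and 155 CPM in the control, 79.7, 86.1 and 87.0 with ASAH1 shRNA #1 and 127, 123 and 135 with ASAH1 shRNA #2, again without overlap. It fell by 0.91 on the log2 scale with ASAH1 shRNA #1 and by 0.29 with ASAH1 shRNA #2 (limma adjusted p = 5.63e-07 and 0.00102).

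MCM3 moved in opposite directions. It was at 315, 317 and 301 CPM with NS shRNA, 237, 251 and 257 with ASAH1 shRNA #1 and 511, 475 and 521 with ASAH1 shRNA #2, so that each ASAH1 shRNA #2 library was above every control and each ASAH1 shRNA #1 library below. The log2 fold changes were -0.33 ± 0.046 and 0.70 ± 0.054 (limma adjusted p = 0.000169 and 1.52e-06), and the direct log2 ratio of the hairpins was 1.02 ± 0.049 (edgeR adjusted p = 1.99e-08). MCM2, MCM4 and MCM7, which make up the rest of the ring, fell by 0.37, 0.58 and 0.54 on the log2 scale with ASAH1 shRNA #1. With ASAH1 shRNA #2 these 3 genes had log2 fold changes of 0.010 (95% interval -0.11 to 0.13), -0.038 (-0.17 to 0.095) and -0.048 (-0.17 to 0.074), none past the threshold, and their libraries overlapped those of the control. All 6 subunits were higher with ASAH1 shRNA #2 than with ASAH1 shRNA #1, by log2 ratios from 0.35 for MCM5 to 1.02 for MCM3.

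The helicase is a ring with 1 copy of each subunit, and the levels of its mRNAs per length of merged exons were far from equal. In RPKM (CPM per kilobase of merged exons), MCM3 stood at 85.3 ± 2.42 and MCM7 at 80.6 ± 4.33 with NS shRNA, an order of neighbours that held in each library but lay within the spread of their means. MCM6 (38.0 ± 1.20), MCM2 (33.2 ± 1.14), MCM4 (19.0 ± 0.905) and MCM5 (15.0 ± 0.176) followed in that order in every control library. In all 6 hairpin libraries MCM2 stood above MCM6, the other order from the control. The ratio of MCM3 to MCM5 in RPKM was 5.70 ± 0.098 (SD, n = 3) in the control, 10.4 ± 0.51 after ASAH1 shRNA #1 and 16.5 ± 0.46 after ASAH1 shRNA #2, and the groups did not overlap. A merged exon length counts every annotated transcript of a gene, so levels of genes with long rare transcripts are understated on this scale. MCM4 and MCM5, the lowest subunits, had the longest merged exons of the 6, at 9852 and 7268 bases. The order of the subunits within a library, and the point at which MCM2 passes MCM6, therefore depend on these lengths. A ratio between groups is not affected.

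**Figure D3:**
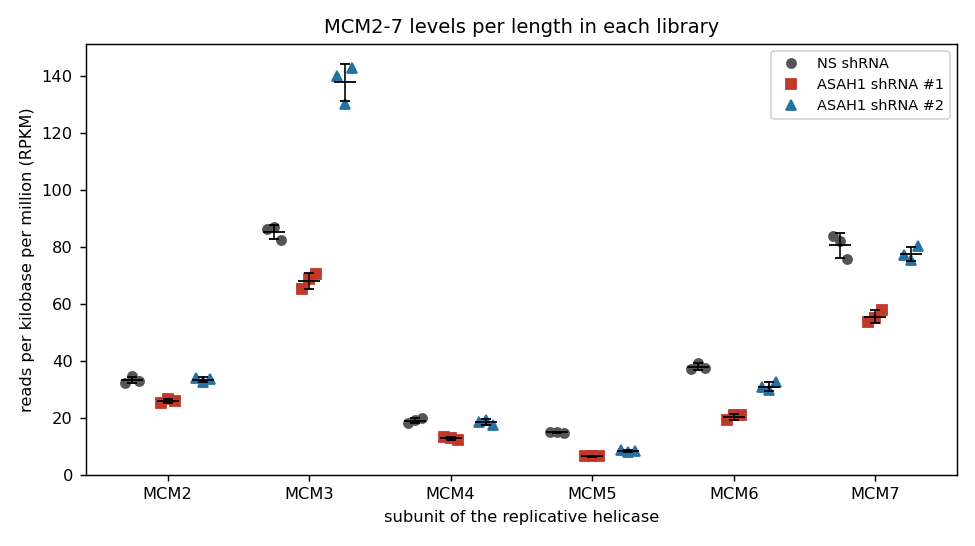
Levels of MCM2 to MCM7 in RPKM in each of the 9 libraries (circles NS shRNA, squares ASAH1 shRNA #1, triangles ASAH1 shRNA #2), with bars for the mean and 1 SD of 3 libraries. MCM3 spans from 65 with ASAH1 shRNA #1 to 143 with ASAH1 shRNA #2, MCM5 is lowest in each library, and the ASAH1 shRNA #1 points lie below the control for all 6 subunits.

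Of the 5 licensing genes, ORC6, CDC6 and ORC1 rose with ASAH1 shRNA #2, and all 5 were higher with it than with ASAH1 shRNA #1. Among all genes tested, 33.5% rose with ASAH1 shRNA #2 and 31.4% were higher with it than with ASAH1 shRNA #1. CDC6, the ATPase that helps to load the helicase, stood at 103, 108 and 101 CPM with NS shRNA, 108, 116 and 121 with ASAH1 shRNA #1 and 193, 191 and 195 with ASAH1 shRNA #2. The ASAH1 shRNA #2 libraries lay well above the rest, and the log2 fold change of 0.90 ± 0.051 (limma adjusted p = 2.07e-07) was the highest of the 47 in that comparison. The change of 0.13 ± 0.053 with ASAH1 shRNA #1 passed narrowly (adjusted p = 0.0489) and did not pass in 9 of 15 alternatives (adjusted p from 0.0245 to 0.158), among them those that left out any 1 control library or the replicate 2 or 3 library of ASAH1 shRNA #1. ORC6, the smallest subunit of the origin recognition complex, was at 25.7, 23.7 and 23.3 CPM in the control and rose in both comparisons, to 35.0, 34.3 and 33.0 with ASAH1 shRNA #1 and 43.9, 45.7 and 44.3 with ASAH1 shRNA #2. None of these groups overlapped, and the log2 fold changes were 0.49 ± 0.062 and 0.89 ± 0.065 (limma adjusted p = 9.46e-05 and 1.05e-06).

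ORC1, the subunit of the complex whose level follows the cell cycle, was the least abundant licensing gene, at 12.4, 14.3 and 13.8 CPM with NS shRNA, 7.41, 9.55 and 7.81 with ASAH1 shRNA #1 and 17.6, 17.6 and 19.1 with ASAH1 shRNA #2. It lay below the control with the one hairpin and above it with the other, with no overlap. The log2 fold changes were -0.72 ± 0.11 and 0.43 ± 0.085 (limma adjusted p = 0.000315 and 0.00115), and the log2 ratio between hairpins, 1.12 ± 0.098, was the highest of the 47. GMNN, the brake on relicensing, fell from 63.4, 62.3 and 52.2 CPM to 36.1, 36.1 and 43.2 CPM with ASAH1 shRNA #1, a log2 fold change of -0.63 ± 0.092 (limma adjusted p = 0.00023), and was 57.4, 52.3 and 66.7 CPM with ASAH1 shRNA #2. The latter overlapped the control, with a log2 fold change of -0.0098 (95% interval -0.23 to 0.21). CDT1, its target, had log2 fold changes of -0.16 (adjusted p = 0.0258, lost in 5 of 15 alternatives, up to 0.0957) and 0.034 (interval -0.13 to 0.20). CDT1 and GMNN both hold an E2F string in the promoter bases shown above.

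Of the 6 genes that turn the helicase on, 4 fell with ASAH1 shRNA #1, beside 33.3% of all genes tested. The others were not past the threshold. CDC45, which binds the MCM ring in the active helicase, was at 40.3, 40.8 and 36.9 CPM with NS shRNA, 29.0, 28.7 and 30.8 with ASAH1 shRNA #1 and 29.3, 26.7 and 29.9 with ASAH1 shRNA #2. It was lower in all 6 hairpin libraries, by log2 fold changes of -0.42 ± 0.061 and -0.46 ± 0.073 (limma adjusted p = 0.000215 and 0.000256), and did not differ past the threshold between hairpins (interval -0.19 to 0.098). MCM10, a scaffold that helps the helicase start, was at 34.5, 37.6 and 42.7, 29.0, 30.9 and 29.7 and 49.0, 45.3 and 45.4 CPM in the same order of groups. It fell with ASAH1 shRNA #1 (-0.36 ± 0.081) and rose with ASAH1 shRNA #2 (0.29 ± 0.084, limma adjusted p = 0.0103, or 0.0517 without the replicate 1 library of ASAH1 shRNA #2).

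The 4 GINS subunits, which form 1 complex, did not move as a block. GINS1 stood at 47.6, 47.5 and 46.9 CPM with NS shRNA, 31.4, 29.7 and 32.2 with ASAH1 shRNA #1 and 54.9, 49.6 and 54.2 with ASAH1 shRNA #2. It fell by 0.61 on the log2 scale with ASAH1 shRNA #1 (limma adjusted p = 8.16e-06), and the rise of 0.16 with ASAH1 shRNA #2 (adjusted p = 0.04) was lost in 8 of 15 alternatives (up to 0.15), including those without any 1 control library or without the replicate 1 or 3 library of that hairpin. GINS2, whose promoter is shown above, fell with ASAH1 shRNA #1 from 33.2, 32.6 and 26.7 to 19.9, 20.7 and 22.8 CPM (-0.55 ± 0.092), while with ASAH1 shRNA #2 it overlapped the control at 27.6, 28.1 and 31.0 CPM. GINS3 and GINS4 had log2 fold changes of -0.017 (interval -0.18 to 0.14) and -0.093 (-0.24 to 0.052) with ASAH1 shRNA #1, neither past the threshold. GINS3 rose with ASAH1 shRNA #2 by 0.23 (limma adjusted p = 0.00585) and GINS4 fell by 0.19 (adjusted p = 0.0406, lost in 6 of 15 alternatives, up to 0.141).

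The polymerase genes were mostly lower with both hairpins. Of the 9 genes, 7 fell with ASAH1 shRNA #1 and 6 with ASAH1 shRNA #2, beside 33.3% and 33.4% of all genes tested. The summed level of 605 ± 3.04 CPM in the control was 514 ± 2.85 and 522 ± 8.71 CPM with the hairpins. POLD1, the catalytic subunit of polymerase delta, was at 105, 109.9 and 102 CPM with NS shRNA, 63.1, 65.9 and 66.4 with ASAH1 shRNA #1 and 84.0, 71.4 and 77.8 with ASAH1 shRNA #2. All hairpin libraries were below the control, with log2 fold changes of -0.70 ± 0.050 and -0.44 ± 0.070 (limma adjusted p = 2.04e-06 and 0.000245). POLE, the catalytic subunit of polymerase epsilon, was at 99.8, 102 and 111, 74.4, 69.8 and 65.1 and 84.4, 83.7 and 77.0 CPM, and its partner POLE2 at 31.2, 31.9 and 31.9, 22.3, 23.8 and 23.4 and 23.8, 25.4 and 22.9 CPM. Both were lower in each hairpin library than in each control, by log2 fold changes of -0.59 and -0.35 for POLE and -0.46 and -0.39 for POLE2.

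The primase complex, which starts each fragment, was divided. PRIM1, its catalytic subunit, fell from 22.4, 23.2 and 22.9 CPM to 16.1, 17.0 and 15.2 with ASAH1 shRNA #1 and 14.9, 19.6 and 16.2 with ASAH1 shRNA #2 (log2 fold changes -0.52 ± 0.068 and -0.44 ± 0.098). PRIM2, the large subunit, rose from 29.3, 29.6 and 30.5 CPM to 36.8, 35.4 and 33.8 and 38.2, 43.2 and 40.0 CPM (0.24 ± 0.058 and 0.44 ± 0.067). Both moved without overlap with the control, in opposite directions under each hairpin (limma adjusted p at most 0.00554 for each). Part of PRIM2 has a near-identical copy elsewhere in the genome, so its counts are less certain than those of PRIM1. POLA1, the catalytic subunit of polymerase alpha, fell by 0.37 on the log2 scale with ASAH1 shRNA #1 and overlapped the control with ASAH1 shRNA #2 (interval -0.090 to 0.17). POLA2, its partner, fell by 0.21 and 0.49 and was lower with ASAH1 shRNA #2 than with ASAH1 shRNA #1 (log2 ratio -0.29 ± 0.053, edgeR adjusted p = 0.000476). POLD3 fell by 0.37 and 0.22, the latter lost in 5 of 15 alternatives (adjusted p up to 0.0732). POLD2 overlapped the control in both comparisons, and its rise of 0.16 with ASAH1 shRNA #1 (adjusted p = 0.0447) was lost in 8 of 15 alternatives, with adjusted p up to 0.133.

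PCNA (chr20:5114953-5126626), the sliding clamp, held 316, 309 and 285 CPM with NS shRNA, 149, 144 and 164 with ASAH1 shRNA #1 and 253, 246 and 271 with ASAH1 shRNA #2. The 3 groups were apart, with the ASAH1 shRNA #1 libraries at about 0.50 of the control. The log2 fold changes were -1.002 ± 0.059 and -0.24 ± 0.059 (limma adjusted p = 6.83e-07 and 0.00455), and the hairpins differed by 0.75 ± 0.062 (edgeR adjusted p = 1.11e-06). Per length PCNA was the most abundant of the 47 mRNAs with NS shRNA (216 ± 11.6 RPKM) and with ASAH1 shRNA #2 (183 ± 9.11 RPKM). With ASAH1 shRNA #1, PCNA (109 ± 7.29 RPKM) and TYMS (112 ± 5.15 RPKM) did not differ beyond their spread.

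The 5 subunits of replication factor C, which open the clamp and load it, were led by RFC1 in the other direction. RFC1, the large subunit, stood at 101, 103 and 110.1 CPM with NS shRNA, 155, 151 and 148 with ASAH1 shRNA #1 and 186, 189 and 185 with ASAH1 shRNA #2, and no groups overlapped. It rose by 0.53 and 0.84 on the log2 scale (limma adjusted p = 1.53e-05 and 4.59e-07), the highest change of the 47 with ASAH1 shRNA #1. RFC2 to RFC5, the small subunits, all fell with ASAH1 shRNA #1, from -0.52 for RFC4 to -0.15 for RFC2, the latter lost in 6 of 15 alternatives (adjusted p up to 0.141). RFC5 fell with ASAH1 shRNA #2 by 0.24 (adjusted p = 0.01), and RFC2, RFC3 and RFC4 had log2 fold changes of 0.090, -0.091 and 0.19 that did not pass the test, RFC4 passing in 1 of 15 alternatives. RFC4 differed most between hairpins, at 46.1, 48.5 and 52.5 CPM with ASAH1 shRNA #1 and 78.0, 72.7 and 89.0 with ASAH1 shRNA #2, a log2 ratio of 0.70 ± 0.084 (edgeR adjusted p = 2.13e-05).

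Replication protein A coats single-stranded DNA as a complex of 3 subunits, of which RPA2 rose and RPA1 fell with ASAH1 shRNA #1. RPA2 was at 63.5, 59.2 and 57.3 CPM with NS shRNA, 76.7, 80.1 and 83.0 with ASAH1 shRNA #1 and 98.1, 100.2 and 101 with ASAH1 shRNA #2, with no overlap. Its log2 fold changes were 0.41 ± 0.056 and 0.74 ± 0.058 (limma adjusted p = 0.000164 and 1.6e-06). RPA1, the large subunit, fell by 0.20 with ASAH1 shRNA #1 (adjusted p = 0.00299) and was at -0.031 with ASAH1 shRNA #2 (interval -0.15 to 0.088). RPA3, the smallest, fell by 0.46 with ASAH1 shRNA #1 (adjusted p = 0.00286). With ASAH1 shRNA #2 it had the widest spread of the 47 in any group, at 35.4, 28.7 and 40.2 CPM, and a log2 fold change of -0.29 that missed the threshold (adjusted p = 0.0518) and passed it in 4 of 15 alternatives. These were upper quartile rescaling (0.0266), DESeq2 (0.0322) and the fits without the replicate 3 control library (0.0116) or the replicate 3 library of that hairpin (0.00644).

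All 3 genes of Okazaki fragment maturation fell with ASAH1 shRNA #1, beside 33.3% of all genes tested. LIG1 (chr19:48115445-48170603), the ligase that seals the fragments, was at 89.1, 90.9 and 86.7 CPM with NS shRNA, 38.2, 43.3 and 44.7 with ASAH1 shRNA #1 and 51.8, 47.8 and 54.3 with ASAH1 shRNA #2. Every hairpin library was below every control, with log2 fold changes of -1.09 ± 0.065 and -0.79 ± 0.064 (limma adjusted p = 7.35e-07 and 1.99e-06). DNA2, a helicase and nuclease that trims long flaps, went from 27.7, 31.6 and 34.3 CPM to 19.2, 19.3 and 17.3 and 21.0, 21.5 and 19.4 CPM. It fell by 0.75 and 0.59 on the log2 scale and did not differ past the threshold between hairpins (interval -0.037 to 0.34). FEN1, the flap nuclease, was at 188, 186 and 159 CPM with NS shRNA, 117, 126 and 152 with ASAH1 shRNA #1 and 212, 192 and 238 with ASAH1 shRNA #2. Its groups did not overlap although they spread widely, and its log2 fold changes had opposite signs (-0.44 ± 0.097 and 0.27 ± 0.087, limma adjusted p = 0.00269 and 0.0183). The rise with ASAH1 shRNA #2 was lost in 3 of 15 alternatives (adjusted p up to 0.0672), among them those without its replicate 1 library and without its replicate 3 library.

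**Figure D4:**
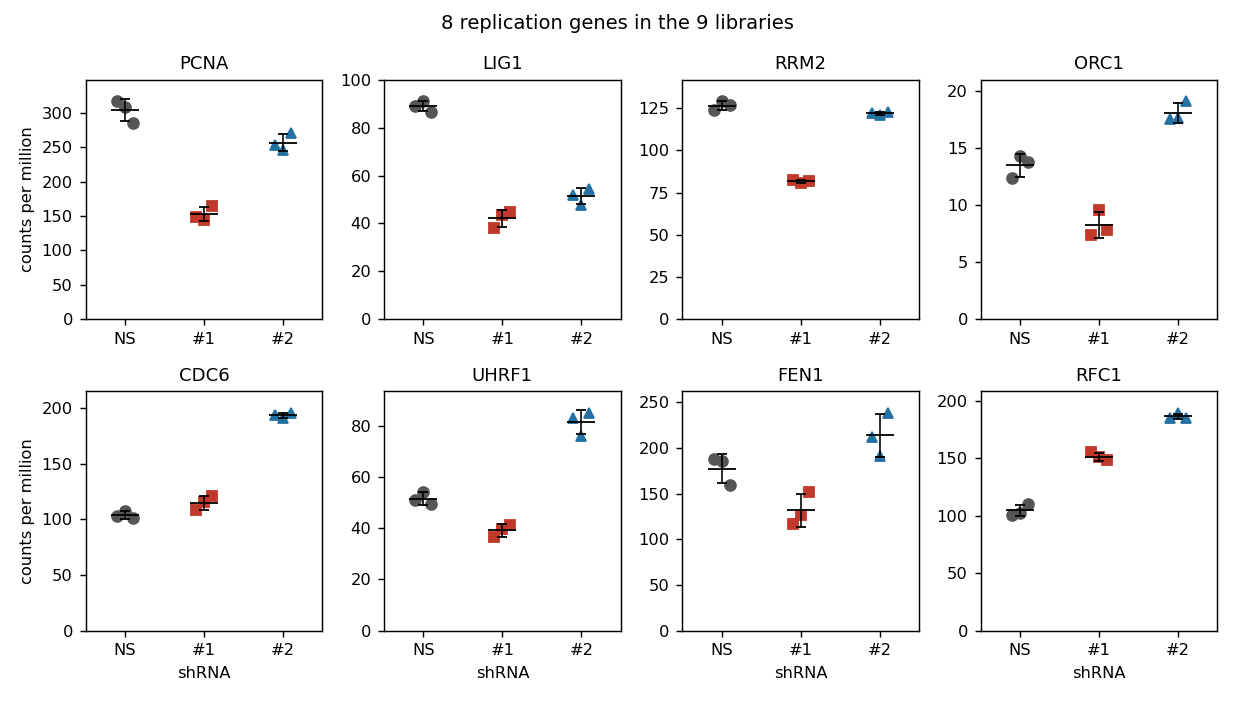
CPM of 8 replication genes in each library, from 0, with bars for the mean and 1 SD of 3 libraries, for NS shRNA, ASAH1 shRNA #1 and ASAH1 shRNA #2. PCNA and LIG1 are lower with both hairpins, RRM2 lies between 80.8 and 82.5 CPM with ASAH1 shRNA #1 and at 121 CPM or more elsewhere, ORC1, UHRF1 and FEN1 lie on opposite sides of the control, and CDC6 and RFC1 are highest with ASAH1 shRNA #2.

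In nucleotide supply, RRM2, TYMS and DUT fell with ASAH1 shRNA #1. RRM2, the S-phase subunit of ribonucleotide reductase, was at 124, 129 and 127 CPM with NS shRNA, 82.5, 80.8 and 81.9 with ASAH1 shRNA #1 and 122, 121 and 123 with ASAH1 shRNA #2. The ASAH1 shRNA #1 libraries stood apart (-0.64 ± 0.044, limma adjusted p = 1.77e-06), and with ASAH1 shRNA #2 the log2 fold change was -0.048 (interval -0.16 to 0.064). RRM1, the large subunit of the same enzyme, did not pass the test in either comparison with the control (-0.054, interval -0.15 to 0.046, and 0.085, interval -0.030 to 0.20). TYMS, thymidylate synthase, was at 324, 324 and 308, 262, 265 and 285 and 238, 250.1 and 252 CPM in the NS shRNA, ASAH1 shRNA #1 and ASAH1 shRNA #2 groups. It fell in both comparisons (-0.24 ± 0.047 and -0.37 ± 0.051), and its lower level with ASAH1 shRNA #2 than with ASAH1 shRNA #1 (-0.14, edgeR adjusted p = 0.0267) was lost in 4 of 15 alternatives. DUT, which clears dUTP, fell by 0.50 with ASAH1 shRNA #1 (adjusted p = 0.000273). With ASAH1 shRNA #2 the DUT libraries overlapped the control and the change did not pass, though it did in 2 of 15 alternatives. These left out the replicate 3 control library (limma adjusted p = 0.0222) or the replicate 3 library of that hairpin (0.0272), each with a log2 fold change of -0.24. TK1, the salvage kinase, overlapped the control with both hairpins (-0.098, interval -0.27 to 0.070, and 0.19, interval 0.012 to 0.37) and was higher with ASAH1 shRNA #2 than with ASAH1 shRNA #1 (0.27 ± 0.081). Its change with ASAH1 shRNA #1 passed in 1 of 15 alternatives and that with ASAH1 shRNA #2 in 2.

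The genes that copy chromatin and DNA methylation were mostly higher with ASAH1 shRNA #2: UHRF1, DNMT1 and CHAF1B rose and none of the 4 fell. Among all genes tested, 33.5% rose and 33.4% fell in that comparison. UHRF1, which brings the maintenance methyltransferase to newly copied DNA, was at 51.1, 54.2 and 49.4 CPM with NS shRNA, 36.4, 39.6 and 41.3 with ASAH1 shRNA #1 and 83.0, 76.0 and 84.8 with ASAH1 shRNA #2. The groups lay apart on both sides of the control (-0.41 ± 0.064 and 0.66 ± 0.066, limma adjusted p = 0.000363 and 8.79e-06), and the hairpins differed by 1.05 ± 0.065 (edgeR adjusted p = 1.3e-07). DNMT1, that methyltransferase, rose from 302, 308 and 336 CPM to 409, 412 and 379 CPM with ASAH1 shRNA #2 (0.35 ± 0.060, adjusted p = 0.000439) and overlapped the control with ASAH1 shRNA #1 at 329, 342 and 320.4 CPM. CHAF1A, the large subunit of the histone chaperone CAF-1, fell by 0.47 with ASAH1 shRNA #1 (adjusted p = 0.000112) and had a log2 fold change of 0.14 with ASAH1 shRNA #2 (interval 0.0047 to 0.28), which passed in 1 of 15 alternatives. CHAF1B, its partner, had log2 fold changes of -0.15 and 0.22, of which the fall (adjusted p = 0.0485) was lost in 10 of 15 alternatives, up to 0.178, and the rise in 1. UHRF1 and DNMT1 hold an E2F string in their windows.

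The presence of an E2F string was set beside the changes as a description. Only the 4 exact strings given above were searched, so a gene without one may hold another form of E2F site. The 21 genes with a string had a median log2 fold change of -0.41 with ASAH1 shRNA #1 (range -1.09 to 0.13), and the 19 without had -0.23 (-0.72 to 0.53). With ASAH1 shRNA #2 the medians were -0.048 and 0.14, and for ASAH1 shRNA #2 against ASAH1 shRNA #1 they were 0.37 and 0.27. The ranges overlapped in the 3 comparisons, and no test was made between these groups of genes.

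A list of 45 other replication genes held further subunits, kinases of origin firing, fork protection, RNase H2, nucleotide enzymes and histone chaperones. With ASAH1 shRNA #1, 19 fell and 10 rose, where 33.3% and 32.8% of all genes tested did, and the median log2 fold change was -0.11. After ASAH1 shRNA #2, 16 fell and 18 rose with a median of 0.016, beside 33.4% and 33.5% of all genes. Between hairpins 21 were higher and 10 lower with ASAH1 shRNA #2, median 0.11, beside 31.4% and 32.5%. No test was made between this list and the 47 genes. SKP2, a ubiquitin ligase subunit that marks the inhibitor p27 for destruction, had the deepest fall of the list with ASAH1 shRNA #1, from 33.6, 38.1 and 38.0 CPM to 9.55, 9.97 and 10.3 with ASAH1 shRNA #1 and 25.0, 22.7 and 24.4 with ASAH1 shRNA #2 (-1.88 ± 0.075 and -0.60 ± 0.077, limma adjusted p = 6.69e-08 and 5.6e-05). CHTF18, part of an alternative clamp loader, fell by 0.99 with ASAH1 shRNA #1 and by 0.39 with ASAH1 shRNA #2. SLBP, which binds histone mRNA, fell by 0.88 with ASAH1 shRNA #1 and was at 0.021 with ASAH1 shRNA #2 (adjusted p = 0.773). TOP1 and ORC5 rose with both, by 0.67 and 0.59 and then by 0.30 and 0.32, while CHTF8 rose by 0.48 with ASAH1 shRNA #1 and fell by 0.25 with ASAH1 shRNA #2. In the ASAH1 shRNA #2 libraries the fork factors WDHD1 and CLSPN and the histone chaperone NASP rose by 0.85, 0.83 and 0.83. ASF1B, ORC3 and TIMELESS fell there by 0.90, 0.76 and 0.75, and their log2 fold changes with ASAH1 shRNA #1 were -0.44, -0.11 (adjusted p = 0.238) and -0.71. CLSPN, which carries the checkpoint signal at the fork, was at 52.9, 49.5 and 52.4 CPM with ASAH1 shRNA #1 and 104, 107 and 101 with ASAH1 shRNA #2, a log2 ratio of 1.01 ± 0.063 (edgeR adjusted p = 1.38e-07), and POLD4, the small subunit of polymerase delta, had a log2 ratio of -0.62.

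Of the 13 E2F, DP and pocket protein genes, 7 fell and 5 rose with ASAH1 shRNA #1, and 3 fell and 6 rose with ASAH1 shRNA #2. Among all genes tested, 33.3% fell and 32.8% rose with ASAH1 shRNA #1, and 33.4% fell and 33.5% rose with ASAH1 shRNA #2. E2F1, an activating member, was at 139, 137 and 128 CPM with NS shRNA, 84.5, 86.4 and 87.1 with ASAH1 shRNA #1 and 122, 116 and 128 with ASAH1 shRNA #2. The fall with ASAH1 shRNA #1 was -0.65 ± 0.048 (limma adjusted p = 2.63e-06), and the change with ASAH1 shRNA #2 did not pass (-0.14, adjusted p = 0.0601), though it did in 3 of 15 alternatives, with upper quartile rescaling (0.0176), without the replicate 3 control library (0.0343) and without the replicate 3 library of that hairpin (0.0351). E2F7, a repressing member, rose from 90.4, 96.2 and 107 CPM to 253, 249.6 and 233 with ASAH1 shRNA #1 and 184, 186 and 169.7 with ASAH1 shRNA #2 (1.32 ± 0.068 and 0.89 ± 0.071). E2F5 rose by 1.13 and 0.92, E2F3 by 0.60 and 0.84, and RBL2, a pocket protein of resting cells, fell by 0.70 and 0.77. E2F2 fell by 0.65 with ASAH1 shRNA #1 and was at -0.089 with ASAH1 shRNA #2 (adjusted p = 0.449). E2F8 fell by 0.59 and 0.58 and TFDP2 by 0.49 and 0.25 with ASAH1 shRNA #1 and ASAH1 shRNA #2. TFDP1, the DP partner of E2F factors, was higher with ASAH1 shRNA #2 than with ASAH1 shRNA #1 by 0.58 ± 0.042. E2F1 and TFDP1 ordered the hairpins as most replication genes did, and E2F7 and E2F5 the other way (-0.45 and -0.22, edgeR adjusted p = 0.000102 and 0.00175).

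Genes of mitosis ordered the hairpins in the opposite way to the replication genes. Of 20, 10 fell and 4 rose with ASAH1 shRNA #1 (median log2 fold change -0.17), and 16 fell and 1 rose with ASAH1 shRNA #2 (median -0.46). Among all genes tested, 33.3% fell and 32.8% rose with the first hairpin, and 33.4% fell and 33.5% rose with the other. Between hairpins 15 mitosis genes were lower and 1 higher with ASAH1 shRNA #2 (median -0.35), beside 32.5% and 31.4% of all genes tested. In the same comparison 36 of the 47 replication genes were higher. The summed share of the mitosis genes, again without scaling between libraries, was 0.329% to 0.346% of reads on genes with NS shRNA. It was 0.312% to 0.322% with ASAH1 shRNA #1 and 0.224% to 0.240% with ASAH1 shRNA #2. The groups were apart and the lowest was the ASAH1 shRNA #2 group. MKI67, the proliferation antigen, was at 395, 355 and 451 CPM with NS shRNA, 376, 354 and 292 with ASAH1 shRNA #1 and 178, 207 and 143 with ASAH1 shRNA #2. The fall with ASAH1 shRNA #2 was -1.19 ± 0.12 (limma adjusted p = 1.18e-05), and the change with ASAH1 shRNA #1 did not pass (-0.24, adjusted p = 0.0722) but did in 3 of 15 alternatives, with DESeq2 (0.0397), without the replicate 2 control library (0.0362) and without the replicate 1 library of ASAH1 shRNA #1 (0.0307). With ASAH1 shRNA #1 and then ASAH1 shRNA #2, PLK1, the mitotic kinase, fell by 0.48 and 1.05, CENPA, the centromeric histone, by 0.37 and 1.07, KIF20A by 0.80 and 1.01, and CCNB2 by 0.63 and 0.91. KIF11, the spindle motor, was lower with ASAH1 shRNA #2 than with ASAH1 shRNA #1 by a log2 ratio of -0.67. CDC20, an activator of the anaphase complex, rose with both hairpins (0.31 and 0.49), and UBE2C and TTK rose with ASAH1 shRNA #1 (0.45 and 0.28) and were at 0.10 and -0.20 with ASAH1 shRNA #2 (adjusted p = 0.12 and 0.0395, the TTK call lost in 6 of 15 alternatives).

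**Figure D5:**
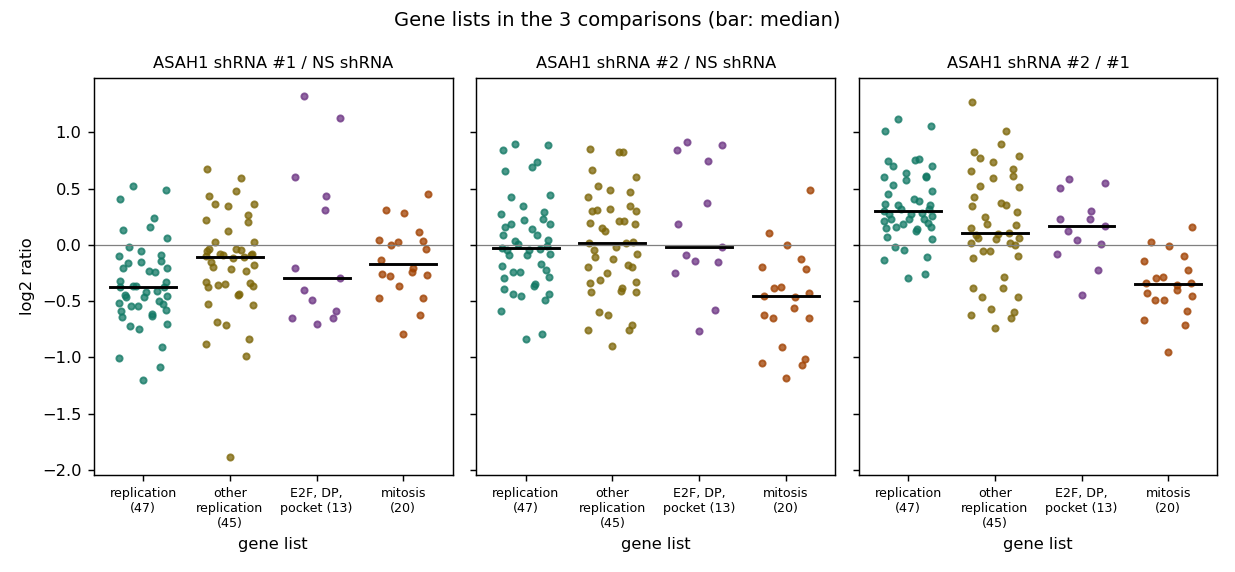
log2 ratio of every gene of the 4 lists in the 3 comparisons, 1 point a gene, with a bar at the median of the list. Replication genes have medians of -0.37, -0.031 and 0.30 from left to right, and mitosis genes -0.17, -0.46 and -0.35, so the right panel places these 2 lists on opposite sides of 0.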

How the data were processed

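RNA from MDA-MB-231 cells with NS shRNA, ASAH1 shRNA #1 or ASAH1 shRNA #2 was sequenced in 3 libraries each. The authors used Trimmomatic 0.36 for trimming, STAR 2.7.1a for alignment (hg38), htseq-count with reverse strand setting for counting on UCSC genes, and DESeq2 1.28 to set each hairpin against the control, with versions from the submitters' processing notes. Their methods also name Bowtie2, RSEM and edgeR. The deposited values are a signal per gene and library, a read count divided by a size factor, set in a separate table for each hairpin. The authors' own columns of fold changes and p-values were not used. The values in the 2 tables were whole reads divided by 1 factor a library (100% within 0.1 read), and the NS shRNA reads differed between tables in 0 genes. Gene symbols had turned into dates for 28 genes of 1 file, and these names were taken from the other, which runs in the same order.

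Each comparison with NS shRNA was fitted by limma 3.58.1 with an intensity trend on log2(deposited value + 1), for genes whose mean was 10 or higher, so that low genes have understated changes. The hairpins were compared by edgeR 4.0.16 (quasi-likelihood) on recovered reads, fitting the 9 libraries together with TMM factors. Run as an alternative on the comparisons with NS shRNA, it called 9476 genes for ASAH1 shRNA #1 and 9554 for ASAH1 shRNA #2, where limma called 9479 and 9538. All tests were two-sided with Benjamini-Hochberg adjustment over all genes tested and a threshold of 0.05. Levels are CPM of the recovered reads with TMM factors, and RPKM on merged GENCODE release 44 exons. Intervals are 95% intervals of the fit. Alternatives included other pseudocounts (0.1 and 5), filters (none and 50), upper quartile scaling, limma without trend, DESeq2 1.42.0, a replicate block and leaving out each library. R 4.3.3 and Python 3.11.15 were used, and the fits were tested on simulated data. The replicates are called biological by the authors but nothing says that they were separate cultures, so p-values measure the spread between these libraries. No single gene can pass an exact permutation test of 3 against 3 libraries, whose smallest p is 0.1.

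Depth was 23806003 to 49659106 reads on genes. The 47 genes and all lists were chosen with earlier results of these data known. Named genes were ASAH1, all 47, the markers, and from each other list the 3 with the largest change in each comparison and direction among those past the threshold with a mean of at least 100. A search for protein motifs was not run.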

Additional observations from a re-analysis of the deposited data

Results flagged for a closer look

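All results here are differences between the effects of both hairpins on the same control, tested directly as ASAH1 shRNA #2 against ASAH1 shRNA #1 by edgeR (adjusted p below 0.05), and values are log2 ratios, positive where ASAH1 shRNA #2 was higher. The causes were not tested. Among all genes tested, 31.4% were higher and 32.5% lower with ASAH1 shRNA #2. Of the 47 replication genes 36 were higher and 3 lower with ASAH1 shRNA #2. Of the 45 other replication genes 21 were higher and 10 lower, of the 13 E2F and pocket protein genes 6 and 2, and of the 20 mitosis genes 1 and 15. ASAH1 itself was at -0.89.

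In the helicase core the ratios were 0.36 for MCM2, 1.02 for MCM3, 0.53 for MCM4, 0.35 for MCM5, 0.60 for MCM6 and 0.48 for MCM7. In licensing they were 1.12 for ORC1, 0.39 for ORC6, 0.75 for CDC6, 0.18 for CDT1 (lost in 6 of 15 alternatives) and 0.61 for GMNN. Activation genes stood at 0.64 (MCM10), 0.77 (GINS1), 0.45 (GINS2) and 0.23 (GINS3). Polymerase genes differed in both directions, with 0.40 for POLA1, 0.20 for PRIM2, 0.25 for POLD1 and 0.23 for POLE against -0.29 for POLA2 and -0.26 for POLD2. PCNA was at 0.75, and the loader genes RFC1, RFC2, RFC3 and RFC4 at 0.30, 0.23, 0.22 and 0.70. RPA1 and RPA2 stood at 0.16 and 0.32, and FEN1 and LIG1 at 0.70 and 0.28. In nucleotide supply the values were 0.13 for RRM1 (lost in 5 of 15 alternatives), 0.58 for RRM2, -0.14 for TYMS (lost in 4 of 15), 0.27 for TK1 and 0.32 for DUT. UHRF1, DNMT1, CHAF1A and CHAF1B were at 1.05, 0.28, 0.60 and 0.36. Upper quartile normalization ended the calls for PRIM2 (adjusted p = 0.0914), POLE (0.0536), RFC3 (0.0545), RPA1 (0.138, with the log2 ratio at 0.084) and TK1 (0.0531).

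Among other replication genes, SKP2 (1.27), CLSPN (1.01), SLBP (0.90), NASP (0.79), WDHD1 (0.61) and CHTF18 (0.59) were higher with ASAH1 shRNA #2. CHTF8 (-0.74), ORC3 (-0.65), POLD4 (-0.62), ASF1B (-0.47), TOP1 (-0.38) and ORC5 (-0.28) were lower. E2F1 (0.50), E2F2 (0.55), E2F3 (0.23), TFDP1 (0.58) and TFDP2 (0.23, lost with upper quartile normalization, at an adjusted p of 0.0705, and without the replicate 3 library of ASAH1 shRNA #1 or the replicate 2 library of ASAH1 shRNA #2) were higher, and E2F5 (-0.22) and E2F7 (-0.45) lower. In mitosis CDC20 (0.16, lost in 6 of 15 alternatives) was higher, and MKI67 (-0.95), CENPA (-0.71), KIF11 (-0.67), PLK1 (-0.59), TTK (-0.49), UBE2C (-0.36), CCNB2 (-0.29) and KIF20A (-0.23) were lower. The KIF20A call was lost in 5 of 15 alternatives, each without 1 library (the replicate 1 control library, the replicate 1 or 2 library of ASAH1 shRNA #1, or the replicate 1 or 3 library of ASAH1 shRNA #2), with adjusted p up to 0.156.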

How the results depend on the processing

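Of 43 counts, medians and motif results, 31 stayed within the spread or 1.5 times the main count, with no change of sign, under every alternative run, and 181 of 234 single-gene results held both their sign and their call. The replicate numbers did not pair the libraries (correlations of deviations from -0.30 to 0.20, 1 of 9 over 0.1), and with the replicate number as a block 33 of the 47 replication genes fell and 4 rose with ASAH1 shRNA #1, 13 fell and 12 rose with ASAH1 shRNA #2, and 34 were higher and 2 lower between hairpins. Leaving out 1 library at a time, 33 to 36 replication genes fell and 4 to 6 rose with ASAH1 shRNA #1, 13 to 15 fell and 11 to 17 rose with ASAH1 shRNA #2, and 34 to 37 were higher between hairpins. Upper quartile scaling moved the median of all genes for ASAH1 shRNA #2 against ASAH1 shRNA #1 to -0.080, that of the replication genes to 0.22 with 29 higher and 4 lower, that of the other replication genes to 0.032, of the E2F list to 0.095 and of the mitosis list to -0.43. Against NS shRNA, the same scaling put the ASAH1 shRNA #2 medians at -0.076 for the replication genes, -0.029 for the other replication genes and -0.50 for the mitosis list. It also turned the sign of log2 changes near 0 with ASAH1 shRNA #2, MCM2 to -0.035, CDT1 to -0.012, POLA1 to -0.0042 and SLBP to -0.024, and between hairpins PRIM1 to -0.0022, POLE2 to -0.024 and E2F8 to -0.068. The median of the other replication genes between hairpins was 0.12 with no filter and 0.093 with a mean of at least 50, where E2F8 was -0.0065. The single mitosis gene higher between hairpins, CDC20, was lost with upper quartile scaling (0 genes) and the block (0), and the count was 0 to 1 when 1 library was left out (0 without the replicate 1 or 2 library of ASAH1 shRNA #1, or the replicate 1 or 3 library of ASAH1 shRNA #2). Leaving out 1 library, the medians ranged from -0.17 to -0.092 (other replication genes), -0.36 to -0.21 (E2F list) and -0.18 to -0.14 (mitosis) with ASAH1 shRNA #1, from -0.029 to 0.033 and -0.11 to 0.073 for the first 2 with ASAH1 shRNA #2, and from 0.11 to 0.15 and 0.098 to 0.24 between hairpins. The same omission turned signs of log2 values near 0, which ranged with ASAH1 shRNA #1 from -0.065 to 0.049 for GINS3, -0.014 to 0.075 for KIF11 and -0.025 to 0.074 for NASP, with ASAH1 shRNA #2 from -0.010 to 0.039 for MCM2, -0.079 to 0.0017 for MCM4, -0.0037 to 0.10 for CDT1, -0.10 to 0.073 for GMNN and -0.031 to 0.066 for SLBP, and between hairpins from -0.076 to 0.0046 for CDC45, -0.043 to 0.15 for PRIM1, -0.069 to 0.037 for RFC5, -0.080 to 0.059 for E2F8 and -0.14 to 0.0073 for RBL2. None of these single genes had passed the threshold in that comparison. The causes of these shifts were not tested. The lowest count of a replication gene was 183 reads in a library, so differences within its counting error cannot be resolved there.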
